A study of Mus musculus with 12 samples.

Results

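hnRNP H, an RNA-binding protein, was mapped on striatal RNA by cross-linking and immunoprecipitation with sequencing (CLIP-seq), and 618 of the 14711 positions in the authors' 2 peak lists are described here. A position was included when it stood in both lists, 1 made after methamphetamine and 1 after saline, and when its midpoint lay in a 3′ UTR, the stretch of an mRNA after the stop codon. The positions were thus chosen by the authors' peak calls, and their CLIP level is given as a description. The 618 positions were 13.1% of the 4729 positions that both lists shared. Of all 3′ UTR positions they made up 41.8% in the methamphetamine list, which had 1478, and 57.5% in the saline list, which had 1075.

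Wild-type C57BL/6J mice of postnatal day 50 to 100 were used, bred from heterozygous Hnrnph1 mutant fathers and C57BL/6J mothers. All received saline on days 1 and 2, and on day 3 either saline again or methamphetamine, a psychostimulant, at 2 mg/kg. Whole striata were taken 30 min later and pooled from 4 mice, 2 of each sex, with 3 pools per treatment, so a single animal's response cannot be seen. Each pool gave a CLIP library, made with an antibody to hnRNP H from the 50 to 75 kDa part of a membrane, and an RNA-seq library from tissue set aside before cross-linking.

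hnRNP H belongs to the hnRNP F/H family, whose RNA-binding domains recognise runs of guanines. The family is best known for regulating alternative splicing and the choice of polyadenylation site. A 3′ UTR carries the sites through which RNA-binding proteins and microRNAs act on the stability, translation and localisation of an mRNA, and neurons keep many long 3′ UTRs.

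The following stretches of 30 bases each lie within the 100 nt window of a position. CLIP reads were counted per window, so a stretch does not mark where the reads lay. The first 4 come from among the positions with the highest CLIP levels. The other 4 come from among those with the most bases in runs of 3 or more G. A Dynll2 window also among the highest CLIP levels (chr11:87979626-87979725) held no such run and is not shown. Every stretch shown holds such a run, so the stretches are no sample of the windows. All were read 5′ to 3′ on the mRNA strand from GENCODE M21 transcripts (build GRCm38), with every run of 3 or more G in capitals. They lie in the 3′ UTRs of Dynll2 (chr11:87980726-87980755, minus strand), Cadm3 (chr1:173334999-173335028, minus), Cadm4 (chr7:24504124-24504153, plus), Ddx6 (chr9:44639593-44639622, plus), Cacng7 (chr7:3367992-3368021, plus), Col4a3bp (chr13:96638936-96638965, plus), Fam171a2 (chr11:102437119-102437148, minus) and Cx3cr1 (chr9:120049178-120049207, minus).
Dynll2: agtcgtgttGGGaggatgctGGGagtaGGG
Cadm3: tttgtaccaGGGGGGcGGGGGGagaGGGGG
Cadm4: actccgatGGGGGGGGcagtaaGGGagaca
Ddx6: aGGGcatctttccttggccacctgctttgt
Cacng7: GGGGtGGGGGGaGGGGGcaGGGGaGGGacg
Col4a3bp: GGGatGGGagaacGGGGaGGGttGGGaGGG
Fam171a2: ctgctaGGGtgaGGGctGGGaaGGGaGGGG
Cx3cr1: GGGaGGGaGGGaGGGaGGGaGGGaGGGagg

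The 8 stretches differ in how densely the G-runs are packed. The whole 100 nt window of Cacng7, a subunit of AMPA-type glutamate receptors and calcium channels, held 8 runs with 38 bases in them. The Cadm3 window, in the mRNA of a neuronal cell adhesion molecule, held 6 runs with 28 bases. In the window of Ddx6, an RNA helicase of processing bodies, there was a single GGG. The Cx3cr1 stretch, from the mRNA of a microglial chemokine receptor, is a simple repeat of GGGA, and the same 30 bases occur in the Srp54b window at chr12:55189208-55189237.

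Runs of G were common in the windows as a whole, and sequence took no part in choosing them. A window of 100 nt could be placed on the sequence of 1 transcript for 579 positions (93.7%). GGG occurred in 456 of them, 78.8% (Wilson 95% interval 75.2% to 81.9%), GGGG in 48.5% (44.5% to 52.6%) and GGGGG in 26.9% (23.5% to 30.7%). The longest run was 14 G, in the window of Csrp1, and 123 windows (21.2%) held no run. All windows of 100 nt laid end to end over the 3′ UTRs of the same 424 transcripts held GGG in 65.1%, GGGG in 27.7% and GGGGG in 9.12% of 11171 windows. The motifs are letters on the mRNA strand only, longer runs also count as shorter ones, and a match is no binding site.

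The contrast was larger for GGGG and GGGGG than for GGG. For 527 positions a second window could be taken 500 nt away in the same 3′ UTR. GGG stood in 79.1% of the positions and 67.4% of the second windows, a difference of 11.8 percentage points (95% interval for paired windows 6.52 to 17.0). GGGG differed by 20.5 points (15.1 to 25.9), at 48.2% against 27.7%, and GGGGG by 18.6 points, at 27.5% against 8.92%. CCC went the other way, at 58.6% against 64.5%, while TTTT stood in 43.6% and 41.6%. Of the second windows, 55 (10.4%) overlapped another listed 3′ UTR position. Windows of 1 transcript share their source, so these intervals describe counting error only.

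Among all 256 words of 4 bases, GGGG had the largest gain over the second windows. GGGA followed with 18.4 points, then AGGG with 16.7, GGAG with 15.2 and GGTG with 14.4. The word lost most was TTCT, at 42.7% of the positions and 57.1% of the second windows, followed by CTTC at 30.6% and 43.8%.

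Along the transcript the G-runs were not centred on the windows. In bins of 20 nt, the share of bases inside G-runs was 11.4% at 80 to 60 nt before the centre and 11.3% in the last 20 nt before it. It was 8.86% in the first 20 nt after the centre and 5.62% at 40 to 60 nt after it. Within 50 nt of the centre the share was 9.25%, and at 200 to 400 nt it was 5.31%. For the 797 placed positions, of 860, in the methamphetamine list alone the same shares were 7.60% and 5.53%. For the 417 placed positions, of 457, in the saline list alone they were 7.76% and 4.96%. Of 574 positions called within their own host gene, 572 started on a fixed grid of 100 nt from the first base of the gene, so a window's edges do not mark where the protein sat.

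**Figure D1:**
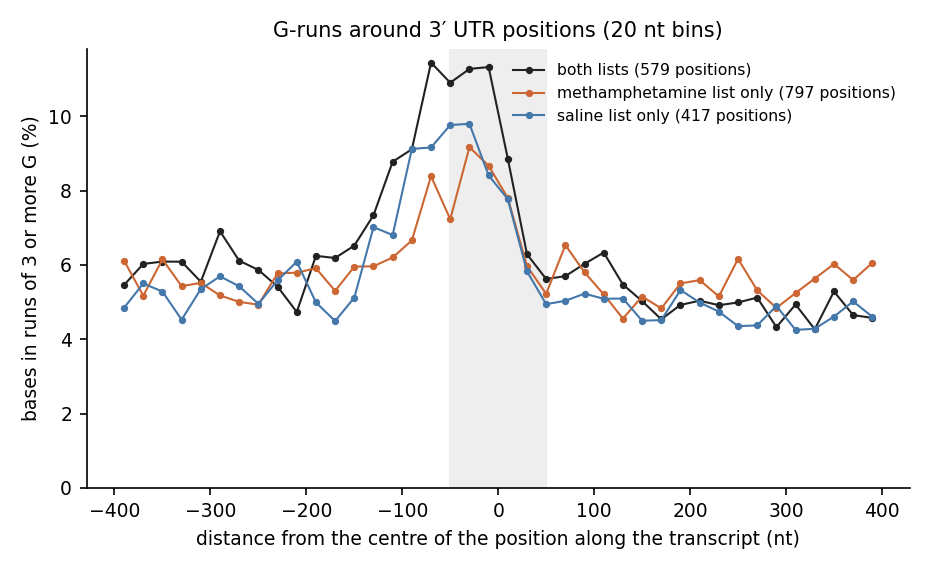
Share of bases in runs of 3 or more G (vertical axis, %) by distance along the transcript from the centre of a position (horizontal axis, nt, negative towards the 5′ end), in bins of 20 nt. The black line is the 3′ UTR positions in both lists, orange and blue those in 1 list, and the grey band is the window of 100 nt; the black line reaches 11.4% before the centre and 5.62% at 40 to 60 nt after it.

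Of the placed positions in 1 list only, GGG stood in 74.9% (71.8% to 77.8%) for the methamphetamine list and 77.5% (73.2% to 81.2%) for the saline list. GGGGG stood in 19.6% (17.0% to 22.5%) and 19.4% (15.9% to 23.5%) of them, and in 26.9% (23.5% to 30.7%) where both lists called the position. At least 3 runs lay in 41.6% of the shared windows, 34.5% of those in the methamphetamine list alone and 37.2% of those in the saline list alone. These differences were not tested.

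The windows were spread over the whole 3′ UTR. Their 3′ UTRs had a median length of 2184 nt. The midpoints of the windows lay a median of 846 nt after the stop codon and 1031 nt before the transcript end. All distances of windows from the stop codon or the transcript end, here and below, are those of the midpoint. With the 3′ UTR divided into 5 equal parts from the stop codon on, they held 22.6%, 19.3%, 20.4%, 19.9% and 17.8% of the windows. Within 200 nt of the transcript end lay 66 windows (11.4%). AATAAA, the main polyadenylation signal, stood in 5.18% of the windows and in 5.29% of all windows of the same 3′ UTRs.

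The 609 positions on the strand of the 3′ UTR fell in 457 host genes. Of the 435 host genes outside the Pcdhg cluster, 353 held 1 position, 47 held 2 and 35 held 3 or more. The Pcdhg genes encode gamma-protocadherins, neuronal adhesion proteins whose mRNAs end in a common last exon. In that exon of 22 genes lay 15 positions, which cannot be assigned to a single gene. Of these, 14 form 1 stretch of overlapping windows and share reads. On the genome, 133 positions touched another one, and 55 stretches consisted of more than 1 window. On the opposite strand lay the other 9 positions, among them those in Maml1, Plscr3, Acot4, Zfp322a, Aopep, Ube2l3 and Cmtr1 and a minus-strand window in Dnah8, whose plus-strand window is a separate position. A class taken from GENCODE on the strand of the window gave 612 positions, of which 609 were among the 618.

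Slc1a2, the main astrocytic glutamate transporter, held the most positions. Its 13 windows ran from 175 to 8975 nt after the stop codon in a 3′ UTR of 9250 nt, and 6 of them held no G-run. The highest Slc1a2 window, at chr2:102788760-102788859 on the plus strand, had 38, 14 and 99 reads in saline libraries and 108, 56 and 58 in methamphetamine ones. At 1974 nt before the transcript end, it held 3 runs with a longest run of 5 G.

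Hnrnpul2, an hnRNP-like nuclear protein, held 10 windows, several of which overlap and share reads. The Hnrnpul2 window with the most reads lay 425 nt after the stop codon and had 43, 9 and 94 reads in saline libraries and 70, 57 and 15 in methamphetamine ones. Dpysl2 (CRMP2), a tubulin-binding protein of growing axons, held 7 windows between 130 and 2130 nt after the stop codon, of which 3 had no G-run.

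Cplx2, which clamps and triggers vesicle fusion, held 6 windows from 190 to 2490 nt after the stop codon. Camk2b, a subunit of calcium/calmodulin-dependent kinase II, held 5 that were spaced from 133 to 2033 nt, and its best-covered window carried 5 G-runs. Scn4b, a sodium channel beta subunit prominent in striatal neurons, also held 5, and 3 of those had no G-run. These 6 genes were picked for their number of positions, and 4 of them had most of their windows without a line in the deposited count table.

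Read counts were present for 562 positions, and the 56 others had no line in the count table. The 6 CLIP libraries held 423057 to 1635338 peak reads, and 5012 to 19278 of those fell in the 562 positions. A position had a median of 6 to 20 reads per library, 254 positions had more than 3 reads in every library, and 83 had 0 in at least 1. Saline replicates 1 and 3 and methamphetamine replicate 2 resembled one another across the 562 positions, with Pearson correlations of log2 levels of 0.778 to 0.829. All other pairs lay between 0.329 and 0.609, whatever their treatment. Positions share libraries and depth, so these values describe the libraries only. The RNA-seq libraries of the same 3 pools held 3022 to 3260 CPM (read counts scaled to equal library totals) of summed astrocyte markers, against 4540 to 5018 in the other 3, and higher summed striatal projection neuron markers (12934 to 14546 against 9378 to 10416 CPM). All 16 striatal markers had reads in every library. Summed choroid plexus markers were 5365 CPM in methamphetamine replicate 2 and 152 to 291 elsewhere.

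The highest level was in Dynll2, a dynein light chain that links cargo to motor proteins. Its window at chr11:87980726-87980825 reached 140.1, 322 and 348 CPM in saline pools and 743, 335 and 271 CPM in methamphetamine pools, on a scale set by edgeR's TMM method. The groups overlapped, with methamphetamine replicate 1 above the other 5 libraries. A second Dynll2 window, 1757 nt after the stop codon and 150 nt before the transcript end, held no G-run. It reached 58.8, 297 and 122 CPM in saline pools and 504, 105 and 111 CPM in methamphetamine pools. In another, 357 nt after the stop codon, the levels were 79.1, 186 and 162 CPM and 315, 167 and 172 CPM.

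Cadm3 and Cadm4, immunoglobulin-type adhesion molecules of axons and glia, came next. The Cadm3 window stood at 135, 189.9 and 139 CPM in saline pools and 282, 141 and 269 CPM in methamphetamine pools. Adjacent Cadm4 windows, 552 and 652 nt after the stop codon, both held runs of 7 or more G. The nearer one gave 84.8, 219 and 122 CPM and then 424, 134 and 132 CPM, and the farther one 62.2, 226 and 119 CPM and then 419.8, 126 and 169.7 CPM. Ddx6 gave 67.8, 254 and 119 CPM in saline pools and 335, 158 and 124 CPM in methamphetamine pools. In each of these windows methamphetamine replicate 1 was highest, and the groups overlapped. Dnah8, an axonemal dynein heavy chain, differed in this: its libraries stood at 128, 201 and 194 CPM and 146, 147 and 213 CPM. The RNA-seq libraries held only 4 to 13 reads of Dnah8, and whether its CLIP reads come from that gene was not tested.

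**Figure D2:**
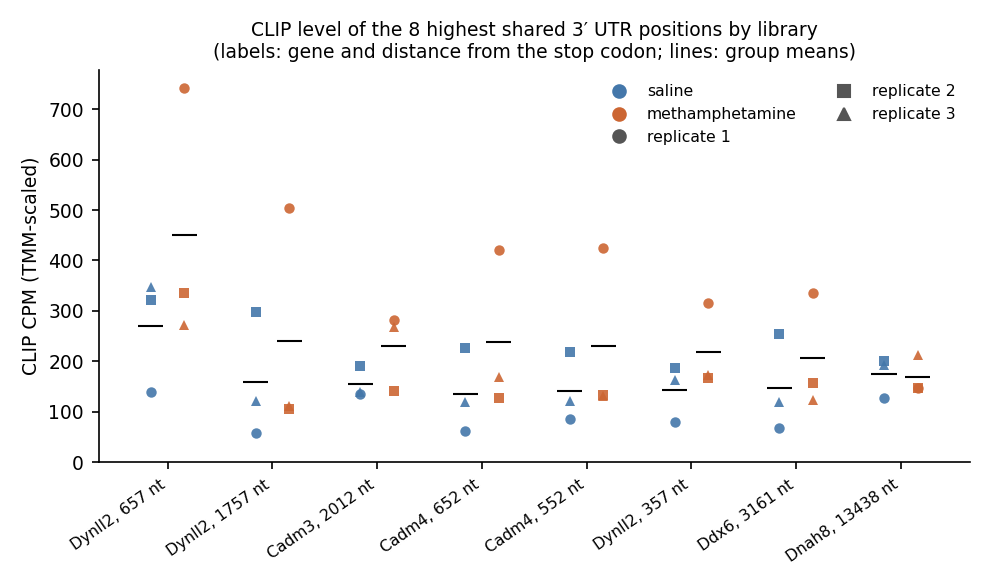
CLIP level (vertical axis, TMM-scaled CPM) of the 8 positions with the highest mean level, 1 column each, labelled by gene and distance from the stop codon; blue points are saline, orange points methamphetamine, the marker shape is the replicate and lines are group means of 3 libraries. Methamphetamine replicate 1 is the highest point in 7 columns, while the other libraries of both groups overlap.

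The share of the CLIP peak reads that fell in the 562 positions overlapped between the treatments. The shares were 0.866% (Wilson 95% interval 0.849% to 0.884%), 1.18% (1.15% to 1.22%) and 1.18% (1.16% to 1.20%) after saline. After methamphetamine they were 1.57% (1.54% to 1.59%), 1.23% (1.20% to 1.25%) and 0.977% (0.952% to 1.00%). The 3 methamphetamine libraries, and saline replicate 1 against the other saline libraries, differed by more than these counting errors. The means were 1.26% ± 0.296 after methamphetamine and 1.08% ± 0.182 after saline (SD, n = 3 pools each), a difference of 0.179 points with p = 0.4 by a two-sided exact permutation test, which cannot go below 0.1 with these numbers. Within the 3 libraries that resembled one another the difference was 0.203 points, and within the other 3 it was 0.0863. It was 0.0243 without methamphetamine replicate 1 and 0.0740 without saline replicate 1. Taken as a share of the reads in 3′ UTR positions of either list, the difference turned, with 47.3% ± 2.93 after methamphetamine and 49.6% ± 1.20 after saline (n = 3 each, exact permutation p = 0.3).

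**Figure D3:**
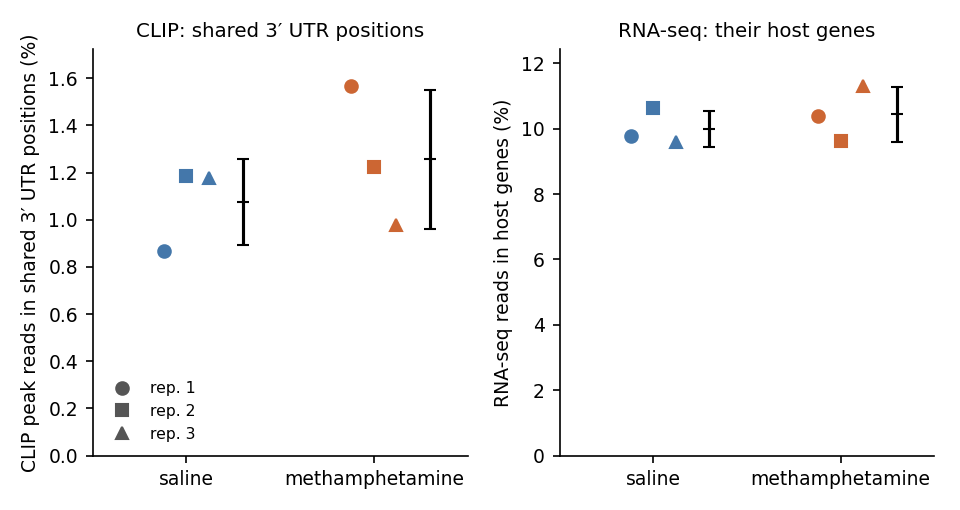
Left, share of each CLIP library's peak reads in the shared 3′ UTR positions (%); right, share of each RNA-seq library's reads in their host genes (%). Points are libraries, the marker shape is the replicate, bars are mean ± SD of 3 pools, and both axes start at 0; the groups overlap in both panels.

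None of the positions passed the test between treatments one by one. After the count filter 367 remained, a filter that a position could pass through its higher group alone. With edgeR's quasi-likelihood test, 0 were called at an adjusted p under 0.05 (0% of all 10358 peaks tested), and DESeq2 called 0. At an unadjusted p under 0.05 there were 25 (6.81%, against 3.35% of all peaks), all higher after methamphetamine (1.86% of all peaks were higher and 1.49% lower). DESeq2 gave 22, of which 21 were higher. All 3 methamphetamine libraries lay above all 3 saline libraries in 38 positions (10.4%, against 4.33% of all peaks), and below them in 3 (0.817%, against 3.62%).

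The median log2 difference, methamphetamine minus saline, was 0.54 over the 367 positions and 0.05 over all peaks tested, and 288 of the 367 were above 0. It was 0.07 without methamphetamine replicate 1 (all peaks -0.0021) and 0.29 without saline replicate 1 (all peaks 0.09). With any other library left out it was 0.51 to 0.71 (all peaks 0.01 to 0.08). It was 0.48 with a replicate block (all peaks 0.04) and 0.31 with the library set as a term (all peaks 0.09). With no count filter the median difference was 0.06 over all 562 positions, below the 0.12 of all peaks. Scaled to all peak reads without TMM it was 0.29, with all peaks at -0.14. Methamphetamine replicate 1 had 56.6% of its reads in the tested peaks and the other libraries had 72.5% to 77.2%. The part of that library, and of the choice of positions, in the difference was not tested.

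**Figure D4:**
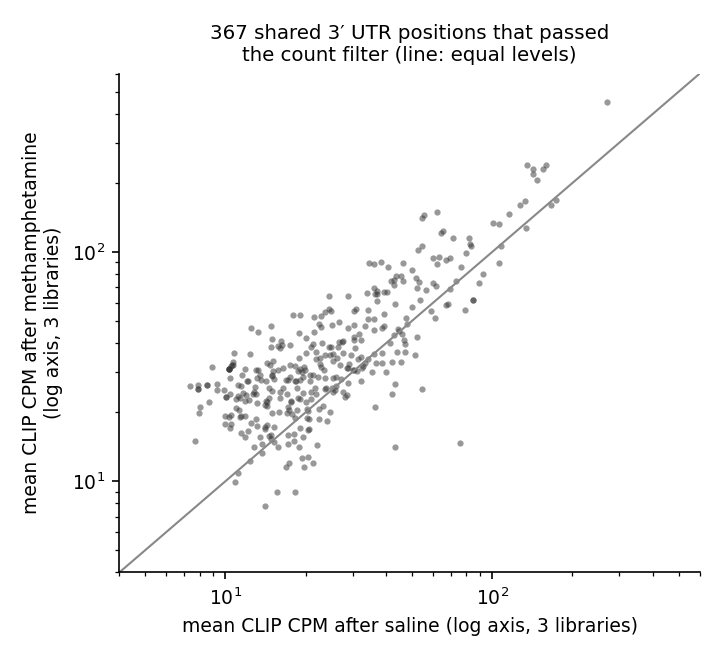
Mean CLIP level after methamphetamine (vertical axis) against that after saline (horizontal axis), both in TMM-scaled CPM on log axes, for the 367 shared 3′ UTR positions that passed the count filter, each mean over 3 libraries; the line marks equal levels. Of the points, 288 have a log2 difference above 0.

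The smallest p-values among higher positions belonged to Csrp1, Pcdhgc5 and Slc8a2. Csrp1 is a LIM-domain protein of the actin cytoskeleton, and its window had 17, 9 and 30 reads in saline libraries and 40, 46 and 22 in methamphetamine ones. On the CPM scale the methamphetamine libraries (82.3, 55.4 and 55.7) lay above the saline ones (19.2, 32.2 and 22.1), a log2 difference of 1.43 ± 0.42 (SE) with an adjusted p of 0.9998 by edgeR. The window in the common Pcdhg exon had 9, 3 and 15 reads in saline libraries and 21, 17 and 14 in methamphetamine ones. Slc8a2, a sodium/calcium exchanger of neurons, had 11, 3 and 29 reads and then 31, 40 and 12. Both had a log2 difference near that of Csrp1, at 1.60 ± 0.49 and 1.61 ± 0.49, and the same adjusted p.

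Among the lower positions the smallest p-values were in Lvrn, Maml1 and Haus8 (unadjusted edgeR p of 0.083, 0.11 and 0.17). The window of Lvrn, an aminopeptidase, had 13, 56 and 16 reads in saline libraries and 5, 9 and 9 in methamphetamine ones. Its log2 difference of -2.30 ± 1.16 rested on saline replicate 2 and was 0.06 without it. The RNA-seq libraries held 0 to 3 reads of Lvrn. Haus8, a subunit of the augmin complex of microtubules, had 10, 28 and 25 reads and then 14, 5 and 3, with overlapping groups on the CPM scale. Its log2 difference of -1.51 also rested on saline replicate 2 and was -0.126 without it. Maml1, where the reads lay on the opposite strand, had 25, 12 and 52 reads in saline libraries and 8, 18 and 10 in methamphetamine ones, with all methamphetamine libraries lower on the CPM scale.

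RNA-seq values, which the rule for the positions does not name, covered 450 of the 457 host genes. The sample titles call these libraries INPUT, and whether the authors' peak calls used them is not given in the sources used here. In bulk tissue, fewer cells of a type and less RNA per cell cannot be told apart. The host genes were abundant, with a median of 18.2 CPM per kilobase of transcript against 3.41 over all genes. With genes ranked by RNA level per kilobase and divided into 4 equal groups, from the lowest to the highest 0.469%, 1.25%, 2.37% and 5.89% held a shared 3′ UTR position. Within the 416 host genes with counts, the CLIP level of the best-covered window bore little relation to the RNA level per kilobase (Pearson 0.031, Spearman 0.054 on 416 genes that share the same libraries).

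No host gene passed the test of RNA level between treatments. limma called 0 of 450 at an adjusted p under 0.05 (0% of all 18208 genes), and edgeR on reads recovered from the deposited values called 0. At an unadjusted p under 0.05 there were 2 (0.444%, against 1.52% of all genes) by each of the tests, and limma had 1 on either side (0.555% of all genes were higher and 0.961% lower). The median log2 difference was 0.02 over the host genes and 0.00 over all genes. The host genes took 9.78%, 10.6% and 9.59% of the RNA-seq reads in saline libraries and 10.4%, 9.62% and 11.3% after methamphetamine, and the 2 groups overlapped (exact permutation p = 0.6, two-sided).

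The host gene with the smallest p was St8sia5, a sialyltransferase that builds gangliosides. Its log2 CPM was 4.46, 5.15 and 4.34 after saline and 5.43, 4.96 and 5.90 after methamphetamine, so the groups overlapped, with a difference of 0.78 ± 0.29 (SE, limma adjusted p = 0.9998). Agpat4, an acyltransferase of phospholipid synthesis, and Ccp110, a centriolar protein, were next on the higher side, at 0.50 ± 0.24 and 0.51 ± 0.25. On the lower side stood Lpl, lipoprotein lipase, with 5.36, 5.23 and 5.09 and then 4.78, 4.95 and 4.70, a difference of -0.42 ± 0.17 with no overlap. Lhx6, a transcription factor of interneurons, had -0.36 ± 0.17. Penk, the enkephalin precursor of indirect-pathway striatal neurons, had 9.47, 9.51 and 9.24 after saline and 9.03, 9.14 and 9.16 after methamphetamine, a difference of -0.30 ± 0.17 with the same adjusted p. Lhx6 and Penk did not overlap between groups either. Such separation was seen in 11 host genes on the lower side (2.44%, against 3.58% of all genes) and in 2 on the higher side (0.444%, against 2.44%).

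The targets of the antibody held none of the positions. Hnrnph1 stood at 5.01 ± 0.25 log2 CPM in saline pools and 4.94 ± 0.03 in methamphetamine pools (SD, n = 3 each). The levels of Hnrnph2 were 4.90 ± 0.50 and 4.96 ± 0.27, and of its close relative Hnrnpf 5.21 ± 0.30 and 5.42 ± 0.24. The groups overlapped for all 3 genes, and limma gave an adjusted p of 0.9998 for each.

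Host genes were then read by role, with gene lists chosen with earlier results known. In no list was a host gene called by limma. Of all genes with RNA-seq values 2.47% were host genes, and among genes with a mean log2 CPM above 4, the share was 4.67%. The median RNA level of the lists ran from 2.69 CPM per kilobase for choroid plexus to 186 for calmodulin, 14-3-3 and ubiquitin genes, above the 3.41 of all genes in 14 of 15 lists, and its part in the shares was not tested.

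Striatal projection neuron markers held the highest share, with 5 of 16 as host genes, among them Adora2a, Penk, Ppp1r1b and Gnal. Adora2a encodes an adenosine receptor of indirect-pathway neurons, and its window had 17, 30 and 32 reads in saline libraries and 52, 19 and 17 in methamphetamine ones. Penk had 6, 11 and 14 reads and then 38, 15 and 3, in a window centred 57 nt after the stop codon and without a G-run. In both the groups overlapped. The RNA log2 difference was negative in 5 of these 5 genes, with a median of -0.30, beside -0.21 for the whole marker list. Within saline replicates 1 and 3 and methamphetamine replicate 2, where striatal markers were higher, it was -0.038 for Adora2a and -0.21 for Penk. Within the other libraries it was -0.16 and -0.41. The part of these library sets in the shared sign was not tested.

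Dopamine and cAMP signalling had 6 host genes of 31. They include Ppp1r9b (spinophilin, an anchor of protein phosphatase 1 in spines), Pde1b (a calmodulin-dependent phosphodiesterase) and Ppp3r1 (the regulatory subunit of calcineurin). The Ppp1r9b window had 20, 21 and 56 reads in saline libraries and 79, 23 and 13 in methamphetamine ones. Pde1b had 15, 0 and 38 reads and then 25, 28 and 16, and its methamphetamine libraries all lay above the saline ones on the CPM scale (log2 difference 1.30 ± 0.78, edgeR adjusted p = 0.9998). Ppp3r1 had 13, 12 and 19 reads and then 18, 20 and 6.

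The postsynaptic density list had 7 host genes of 32, among them both main subunits of the kinase CaMKII, the scaffolds Shank1 and Shank3 and the NMDA receptor subunits Grin2a and Grin2b. Camk2a had 24, 19 and 60 reads in saline libraries and 98, 21 and 16 in methamphetamine ones, and Grin2b, in a window with 8 G-runs, had 22, 4 and 19 and then 18, 16 and 1. The list of vesicle release genes had 3 host genes of 32, namely Vamp2, Syt1 and Cplx2. Vamp2, the vesicle SNARE, had 1, 10 and 5 reads and then 26, 10 and 7. Voltage-gated channels gave 5 of 39 (Scn2b, Scn4b, Kcna2, Kcnc1 and Kcnj3), whose windows with counts outside Scn4b were too low for the count filter.

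Cytoskeleton and transport genes had 9 host genes of 42, including the microtubule proteins Mapt and Map1b, 3 tubulins and the kinesins Kif1b and Kif5a. The RNA log2 difference was positive in all 9, with a median of 0.14 and none called. The whole list had a median of 0.098, and 255 of all 450 host genes had a positive difference. Hosts of other lists also shared a direction: all 6 of dopamine and cAMP signalling were negative, and all 3 astrocyte and all 3 oligodendrocyte hosts positive. Saline replicates 1 and 3 and methamphetamine replicate 2, which differed from the other 3 in astrocyte and striatal markers, do not divide the treatments evenly. Within these 3 and within the other 3, Slc1a2 had -0.0023 and -0.076 (0.14 over all pools). Dpysl2 had -0.11 and 0.11 (0.063), and Adora2a -0.038 and -0.16 (-0.22). The part of this split in the shared directions was not tested. The best-covered window of the cytoskeleton list, in the stathmin gene Stmn4, had 14, 11 and 65 reads in saline libraries and 38, 26 and 23 in methamphetamine ones. Calmodulin, 14-3-3 and ubiquitin genes gave 4 of 16, among them Calm3, Ywhag and Ywhaz.

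Genes for RNA-binding proteins were themselves hosts, with 8 of 46 hnRNPs and splicing regulators. The Tardbp window, in the mRNA of TDP-43, was the highest of them: it held 7 G-runs and had 97, 31 and 217 reads in saline libraries and 132, 106 and 33 in methamphetamine ones. Hnrnpa1 had 52, 42 and 91 reads and then 64, 63 and 13. The others were Hnrnpab, Hnrnpdl, Srsf1, Srsf5, Elavl3 and Khdrbs1. Of 20 cleavage and polyadenylation genes 2 were hosts, Sympk and Pabpn1. Immediate early genes gave 2 of 20, Egr1 and Npas4, each with 21 or fewer reads in every library.

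Glial mRNAs were among the hosts. Astrocyte markers had 3 of 10 (Slc1a2, Glul and Gja1) with 18 positions in all, oligodendrocyte markers 3 of 13 (Mobp and Mal among them) and microglial markers 1 of 10 (Cx3cr1). Glul, glutamine synthetase, had 42, 33 and 113 reads in saline libraries and 97, 63 and 17 in methamphetamine ones. In Gja1, the astrocytic gap junction protein connexin 43, the counts were 34, 10 and 63 and then 39, 55 and 21. On the TMM-scaled CPM scale the methamphetamine libraries lay above the saline ones (log2 difference 0.72 ± 0.37, edgeR adjusted p = 0.9998). As a share of all peak reads the groups overlapped, with 21 of 595372 reads in methamphetamine replicate 3 and 63 of 1635338 in saline replicate 3. Of cortical excitatory neuron markers only Nrgn, neurogranin, was a host, 1 of 12, and of the choroid plexus markers none of 12.

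**Figure D5:**
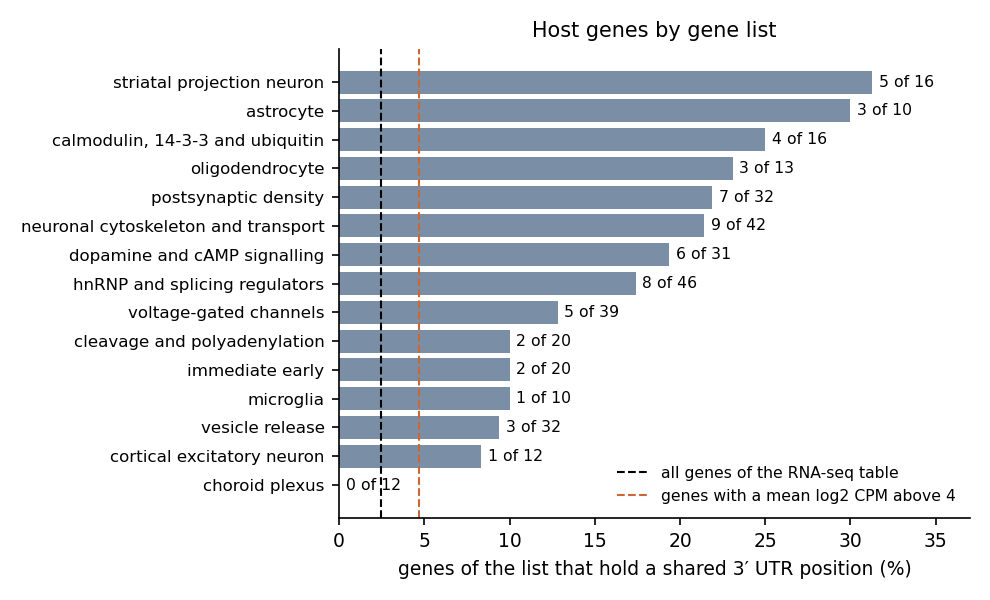
Share of the genes of each list that held a shared 3′ UTR position (horizontal axis, %, bars from 0), with the numbers of genes beside each bar. The dashed lines are the shares over all genes with RNA-seq values (2.47%, black) and over genes with a mean log2 CPM above 4 (4.67%, orange); the bars run from 0 for choroid plexus to 31.3% for striatal projection neurons.

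At the edge of the authors' threshold, a q-value of 0.05, stood Rassf7 with 0.0499 by the methamphetamine calls and Cx3cr1 with 0.0498 by the saline calls, both from the authors' deposited table. Another 39 shared positions touched a 3′ UTR without their midpoint in it and were left out. The authors' signal value, a score per peak whose scale is not given in the sources used here, had a median over the 618 positions of 1.64 for methamphetamine and 1.55 for saline. The whole lists had medians of 1.60 and 1.68.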

How the data were processed

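Per the submitters' processing notes, which give no role or order, Trimmomatic, UMI-tools, STAR, bedtools, Subread, featureCounts, limma, edgeR and the build mm10 were used. The deposited CLIP table holds whole-number counts per window of 101 nt in 6 libraries, and each distinct position was used once. The deposited peak lists, 1 per treatment, give per the file headers a signal value, used as a score, and a p-value and a q-value, the test for which is not given. The deposited RNA-seq values are log2 CPM with an offset of 0.5 reads, and 100% of them inverted to whole reads, within a tolerance of 1%. Whether repeat reads from PCR were removed is not given in the sources used here, so intervals cover counting error only. RNA-seq depth was 3935160 to 5091839 recovered reads per library. Whether counting used strand is not stated, so overlapping genes remain uncertain.

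The region of a position was read at its midpoint from the lists' own regions, with 3′ UTR taking precedence over 5′ UTR, coding, other exonic and intronic regions. Sequences and distances came from GENCODE M21 transcripts, where a window fitted within a transcript's 3′ UTR. CLIP counts of all positions were compared by edgeR 4.0.16 (quasi-likelihood test after TMM and filterByExpr) and RNA-seq with limma 3.58.1 (lmFit, eBayes with trend) in R 4.3.3, each with Benjamini-Hochberg adjustment over all features at 0.05. DESeq2 1.42.0, other scalings, filters, offsets, shifts and overlaps, a replicate block, a library-set term and each library left out were alternatives. The exact tests used scipy 1.17.1.

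Pools are the replicates. The positions, gene lists, library sets and tests were chosen with earlier results of these data known. Named were the 8 positions with the highest mean CPM, the 3 smallest p-values in each direction in CLIP and in RNA-seq, the 6 genes with the most positions, the list members with up to 4 values each, the 10 windows with the most bases in G-runs, the 2 highest signals per list and Hnrnph1, Hnrnph2 and Hnrnpf. Not every named gene and sequence is reported here.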

Additional observations from a re-analysis of the deposited data

How the results depend on the processing

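The number of positions was 655 when an overlap of at least 50 bp counted as shared, 612 with GENCODE regions and 190 when the signal had to reach both lists' medians. The gain in G-runs over windows 500 nt away, 11.8 points for GGG, was 20.5 for GGGG, 23.6 for positions at or above the signal medians and 17.9 with 1 position per host gene, the last chosen after seeing the data. With shifts of 250 and 1000 nt it was 11.9 and 9.38. The difference in the share of CLIP peak reads, 0.179 points, turned to -2.31 when the reads in 3′ UTR positions of either list were the total, and ranged from 0.0243 to 0.319 with 1 library left out. No position was called by edgeR or DESeq2 under any alternative run. Without a count filter, 406 of all 147438 peaks were called, none of them among the 562 positions. The smallest adjusted p of the positions was 0.0944 without a filter and 0.501 to 1 otherwise. The count at an unadjusted p under 0.05 fell from 25 to 13 with scaling to all peak reads, 12 with the library set as a term, 9 without methamphetamine replicate 1, and 3 without saline replicate 1. It was 22 to 24 with DESeq2, with its size factors in edgeR, and without saline replicate 3 or methamphetamine replicate 3. Without saline replicate 2 it rose to 27, and without methamphetamine replicate 2 to 30. Without a count filter there were 3, none of them higher after methamphetamine, whereas all 25 were higher. No host gene was called in RNA-seq under any alternative run, with smallest adjusted p-values of 0.769 to 1 and 0 to 15 genes at an unadjusted p under 0.05 where the main test gave 2; the 15 came without methamphetamine replicate 2 and 13 without saline replicate 2. Same-numbered pools did not deviate together (correlations -0.358, -0.539 and -0.0905 in CLIP, -0.346, -0.821 and -0.489 in RNA-seq). Each such pair was split between the set of saline replicates 1 and 3 and methamphetamine replicate 2 and the other set. These values therefore cannot show whether the numbers pair the pools. With the replicate block, 0 positions and 0 host genes were called, 10 positions and 1 host gene had an unadjusted p under 0.05, and the share gave p = 0.75 by exact sign flips, which cannot go below 0.25. With 1 library left out, the Lvrn CLIP difference ranged from -2.804 (without saline replicate 3) to 0.0647 (without saline replicate 2). In RNA-seq, Hnrnph1 ranged from -0.203 (without saline replicate 3) to 0.0436 (without saline replicate 1), and Hnrnph2 from -0.229 (without saline replicate 3) to 0.234 (without saline replicate 2). Hnrnph2 was also -0.102 with the library set as a term and -0.00375 with quantile normalization. The cause of these shifts was not tested. Depth was low at many positions: 254 of the 562 had more than 3 reads in every library.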

Other observations

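Some positions lay in genes with almost no RNA in the striatum, a group noticed after seeing the data, as was the limit used for it. Among positions on the strand of a single host gene, 25 lay in 24 genes with at most 20 RNA-seq reads in each library. Clrn1, known from inner ear and retina, had the highest signal value of all 618 positions for methamphetamine, 5.20 by the authors' deposited table, and 5.08 for saline. Its window, 307 nt after the stop codon, had 149, 40 and 254 CLIP reads in saline libraries and 64, 159 and 62 in methamphetamine ones, while the RNA-seq libraries held 0 to 6 reads of the gene. Olfr691, an olfactory receptor gene, had 66, 27 and 89 CLIP reads and then 23, 58 and 20, with 0 to 4 RNA-seq reads. Aqp2, a water channel of the kidney, had 142 CLIP reads in methamphetamine replicate 3 and 16 to 75 elsewhere. In Col10a1, a collagen of cartilage, 66 of the reads came from saline replicate 2 and 3 to 8 from each other library.

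These 25 positions had median signal values of 3.06 and 2.93 in the methamphetamine and saline lists, against 1.60 and 1.53 for the 558 positions in genes with more RNA. GGGGG stood in 2 of 22 placed windows (9.09%, Wilson 95% interval 2.53% to 27.8%) and in 28.8% (25.1% to 32.8%) of 532 placed windows in the other genes. GGG stood in 72.7% (51.9% to 86.9%) and 79.3% (75.7% to 82.6%). Across 426 host genes the highest mean signal of a gene's positions was inversely related to the RNA level per kilobase (Pearson -0.61, Spearman -0.54, as a description of genes that share libraries). Whether the signal was taken relative to the RNA-seq libraries, titled INPUT, is not given in the sources used here. A signal so taken would be higher at low RNA by construction, for this relation and for the medians above, which was not tested. The highest saline signal of the 618, 5.10 for Acot4 by the authors' deposited table, belonged to reads on the opposite strand to the 3′ UTR, with 36, 20 and 40 reads in saline libraries and 19, 33 and 16 in methamphetamine ones. Whether the reads of these windows come from the named genes was not tested.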
